A study of Mus musculus with 24 samples.

Results

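White adipocyte precursors treated with epigallocatechin gallate (EGCG), the main catechin of green tea, were compared with control cells on day 8 of adipogenic differentiation. The members were chosen by their labels, as the samples marked WAT (white adipose tissue) preadipocyte, day 8, and either EGCG incubation or control: 6 of the 24 samples of the series, 3 in each group. Both groups were stromal vascular cells, the mixed cell fraction that is left when fat is digested and its floating adipocytes are removed, isolated from the inguinal WAT of 6-week-old C57BL/6 mice. All of them had been kept for 4 days in induction medium (insulin, dexamethasone and 3-isobutyl-methylxanthine) and for a further 4 days in differentiation medium (insulin and the thyroid hormone T3). EGCG cells had EGCG in the medium and control cells its solvent, DMSO; the labels give neither the dose of EGCG nor the day it was added. The other 18 samples were the same cells on day 4 and cells of interscapular brown adipose tissue (BAT) on both days. The stromal vascular fraction also holds immune, endothelial and mural cells, and no sort is described, so each library is a mixture. The labels do not say that replicates came from separate cultures or animals, and the p-values below then measure only the spread between these samples, which may be technical.

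Adipogenesis runs as a cascade: the hormones of the induction medium raise the early factors C/EBP-beta and C/EBP-delta, which switch on PPAR-gamma and C/EBP-alpha, and these keep each other on and drive the genes of lipid storage, insulin-stimulated glucose uptake and adipokine secretion. White adipocytes store triglyceride in a single large droplet, make fatty acids from glucose, and secrete leptin, adiponectin, resistin and adipsin. Precursors that do not enter the cascade keep a fibroblast character, with high collagen, integrin and contractile gene expression.

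Expression was given as FPKM, read numbers divided by gene length and by all reads on genes in that library, in one table for replicates 1 and 2 of all groups and in another, scaled separately, for replicate 3. Replicates 1 and 2 held 39452696 to 52893848 reads on genes per library over the series and replicate 3 held 16392420 to 41675643. A gene of 2 kilobases reached the floor of 3 reads at 0.0284 to 0.0380 FPKM in the first table and 0.0360 to 0.0915 FPKM in the second, and such floors cover counting error only. EGCG replicate 3 stood apart: 25426249 of its reads, 61% of the library, lay on 5 genes (Prl3d1, 1700007K09Rik, 4930555F03Rik, 6030405A18Rik and Gm4675) that had at most 5 reads each in every other library. These genes were dropped from it and its remaining 16249394 reads were rescaled, which multiplied its values by 2.565. Some genes were at very different levels in the 2 tables, for a reason that was not tested; Gapdh was listed at 43.8, 42.1 and 1553 FPKM in control replicates 1, 2 and 3. Tests therefore used replicates 1 and 2, and replicate 3 was used for levels and directions.

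The label was first checked against marker genes. The summed level of 7 adipocyte markers (Adipoq, Plin1, Cidec, Fabp4, Lep, Cfd and Retn) was 4913 to 5768 FPKM in the control libraries and 119.9 to 138 FPKM in the EGCG libraries, and all 7 were lower with EGCG. Defining adipocyte markers were thus abundant in the control libraries and at a small share of that level in the EGCG libraries. The 8 markers of adipose progenitors and fibroblasts (Pdgfra, Col1a1, Col1a2, Ly6a, Dpp4, Pi16, Cd34 and Dcn) summed to 7435 to 8456 FPKM in the control libraries and 3252 to 3400.1 FPKM in the EGCG libraries; 7 were tested and all 7 were lower with EGCG, while Dpp4, which was not tested, was at 0.321, 0.317 and 0.355 FPKM against 0.799, 0.953 and 0.783 FPKM. In bulk samples, fewer cells of a type and less RNA per cell cannot be told apart, and this holds for each result below.

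Markers of some other cell types moved as well. The 10 macrophage markers summed to 105 to 121 FPKM in the control libraries and 56.2 to 65.4 FPKM in the EGCG libraries, with 8 of 8 tested markers lower; Mrc1, a mannose receptor, was listed at 6.33, 9.80 and 7.91 FPKM in the control libraries and 0.625, 0.666 and 0.713 FPKM with EGCG. Of the 8 pericyte and smooth muscle markers, Acta2 (given below) and Notch3 (log2 1.01) were higher, Myh11 was lower, and the other 5 were not called; their sum of 186 to 259.5 FPKM in the control libraries and 340.5 to 434 FPKM in the EGCG libraries was mostly Acta2. The 8 endothelial markers summed to 24.2 to 26.2 FPKM in the control libraries and 32.2 to 34.3 FPKM in the EGCG libraries, with 4 of 7 tested higher and 1 lower. The 6 mesothelial markers summed to 5.46 to 7.70 FPKM in control and 12.5 to 16.7 FPKM in EGCG libraries, with 2 of 3 tested higher. The 4 Schwann cell markers summed to 13.9 to 16.7 FPKM in control and 32.7 to 38.8 FPKM in EGCG libraries, with 3 of 4 tested higher and 1 lower. The sums overlapped for the 7 epithelial markers, at 18.3 to 39.5 FPKM in control and 21.1 to 44.9 FPKM in EGCG libraries, with 2 of 7 tested higher. The 8 skeletal muscle markers summed to 27.7 to 33.8 FPKM in control and 33.9 to 39.3 FPKM in EGCG libraries, with 1 of 5 tested higher. Over all tested genes, 44.7% were higher and 18.9% lower. Among the 7 markers of T and B cells, 5 had at most 3 reads in every library and the sum stayed under 0.438 FPKM. The 6 brown adipocyte markers summed to 25.2 to 29.9 FPKM in control and 8.81 to 11.7 FPKM in EGCG libraries, mostly Cox7a1. Of the 6 tested, 2 were lower and 1 was higher. Ucp1, the uncoupling protein that defines brown adipocytes, had at most 3 reads in each of the 6 libraries. The part of these cell types in the gene changes was not tested.

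A total of 14095 genes reached an FPKM of 1 in at least 2 of the 16 libraries of the first table and were tested with limma on log2(FPKM + 1), a scale on which weakly expressed genes show too small a change. At an adjusted p under 0.05, 8962 genes (63.6%) differed between EGCG and control cells, 6302 (44.7%) higher and 2660 (18.9%) lower with EGCG. Most of these changes were small, since 85.2% of the called genes changed less than 2-fold. At least 2-fold, 546 genes (3.87%) were higher and 777 (5.51%) lower. The lower side reached further: 100 genes fell by 3 or more on the log2 scale and 5 rose by that much.

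The median tested gene was higher by 0.17 (log2) as deposited, on values that are relative to each library's reads on genes. Scaled by the median ratio of genes, the median became 0.00 and the split of calls moved from 70.3% higher to 50.6% (4036 higher and 3944 lower), and with quantile normalization it was 61% (5089 and 3247) around a median of 0.09. Of the genes changed at least 2-fold, 544 of 546 higher and 777 of 777 lower were called in the same direction after median-ratio scaling, but the counts of genes changed at least 2-fold then became 347 higher and 951 lower. Whether counting used the strand is not stated in the sources used here, so reads of overlapping genes cannot be told apart; among the genes named below this concerns B2m (Patl2), Cebpb (Tmem189), Chchd10 (Mmp11), Cxcl10 (Art3), Cxcl16 (Zmynd15), Ccnd1 (Oraov1), Ddit3 (Mars), Fosl1 (Ccdc85b), G6pdx (Ikbkg), Hmga2 (9230105E05Rik), Irf7 (Phrf1), Irf9 (Rnf31), Lrrc59 (Eme1), Pcx (Lrfn4), Srebf1 (Rai1), Sult1a1 (Ccdc101), Timp1 (Syn1), Timp3 (Syn3) and Timp4 (Syn2) among others. Each list below is described by its counts and its median, to be read beside the 44.7% higher and 18.9% lower and the median of all tested genes.

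**Figure D1:**
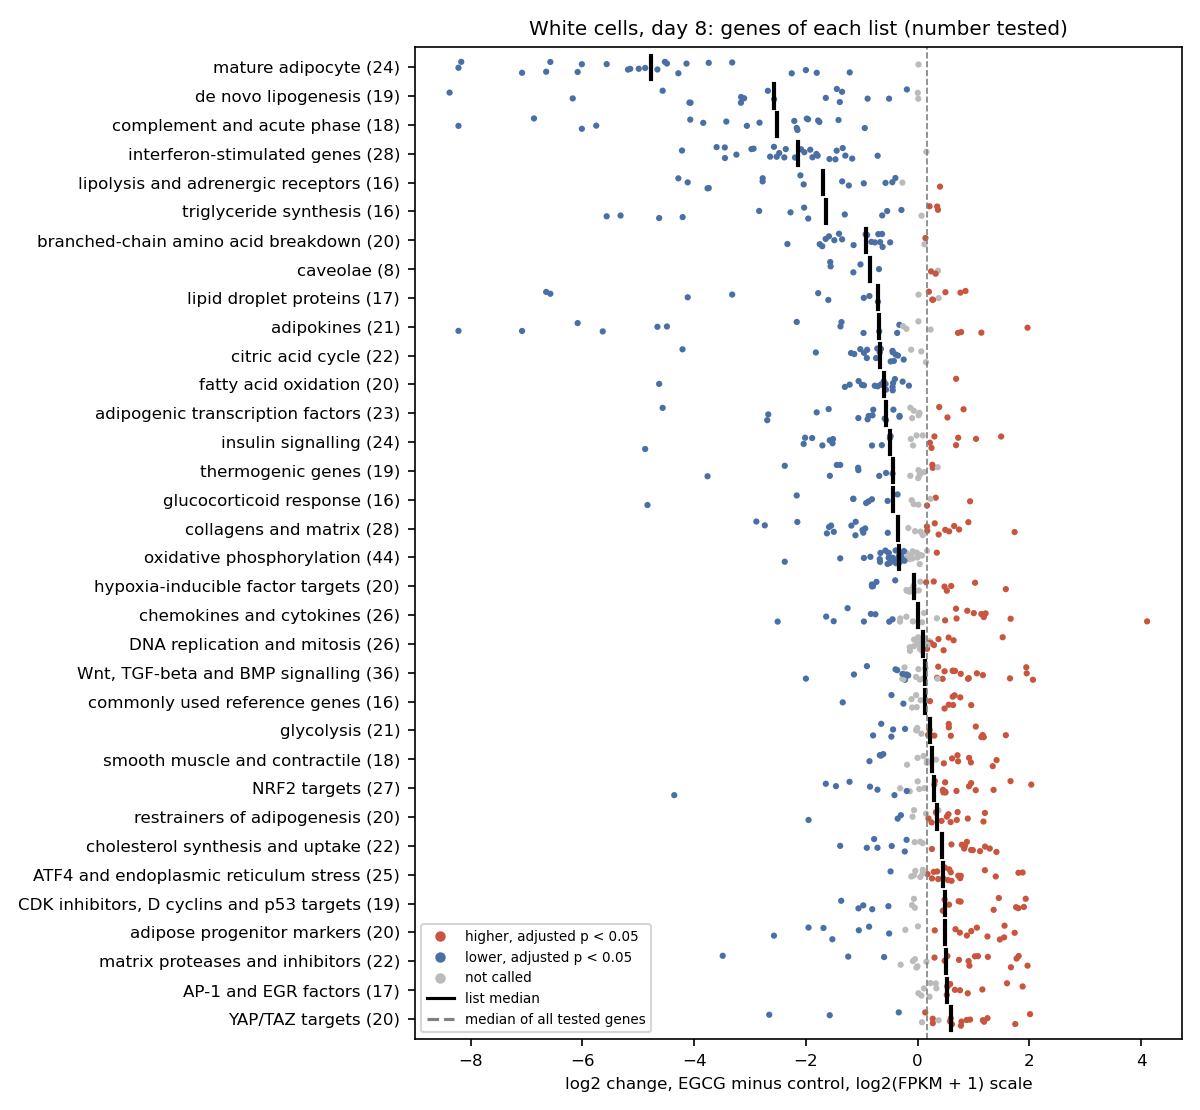
Log2 change (EGCG minus control, replicates 1 and 2, log2(FPKM + 1)) of every tested gene of each gene list on the x axis, one row per list. The dots are genes, red where called higher, blue where called lower and grey where not called, the ticks are list medians, and the dashed line is the median of all tested genes, 0.17. Mature adipocyte genes have the lowest median (-4.77), before de novo lipogenesis (-2.57), complement (-2.52) and interferon-stimulated genes (-2.14), and YAP/TAZ targets have the highest (0.60).

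Replicate 3 gave the same direction as replicates 1 and 2 for 1282 of the 1323 genes called and changed at least 2-fold, 527 of 546 higher and 755 of 777 lower. Without the rescaling of its EGCG library the count was 1103. The matching count over all tested genes is not given here, so this agreement cannot be set against it. The control and EGCG levels did not overlap over the 6 libraries for 521 of the 546 and 750 of the 777. Among all 14095 tested genes such a gap was found for 5846 higher (41.5%) and 2495 lower (17.7%), so a gap alone was common.

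**Figure D2:**
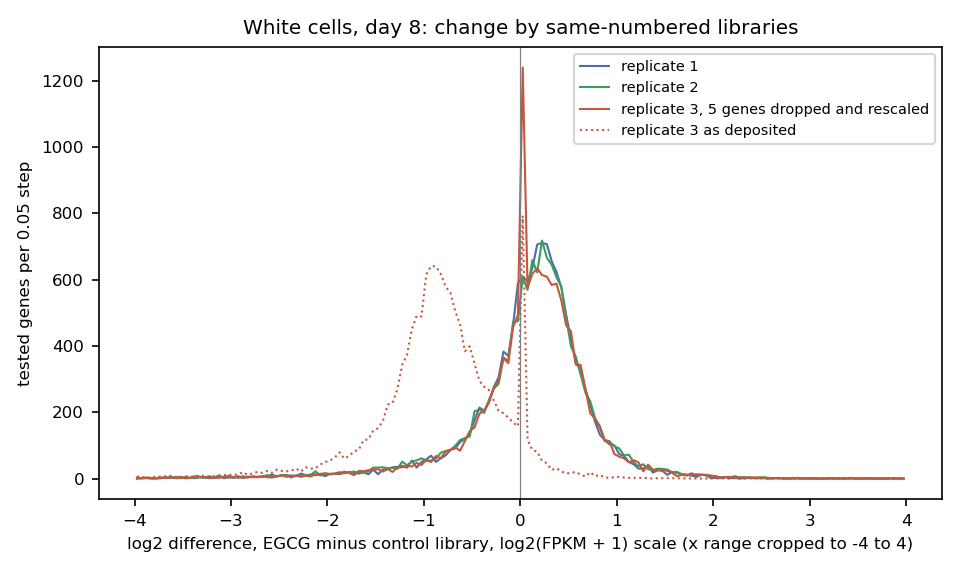
Number of tested genes (y axis, per step of 0.05) by log2 difference between same-numbered EGCG and control libraries (x axis, cropped to -4 to 4), as one line per replicate, with replicate 3 drawn before (dotted) and after dropping 5 genes and rescaling. After rescaling the curve of replicate 3 lies with those of replicates 1 and 2 (medians 0.14, 0.17 and 0.17) instead of at a median of -0.82, and its spike at 0 holds the 835 tested genes listed at 0 in both of its libraries.

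The regulators of adipogenesis were lower as a group. Of 23 adipogenic transcription factors, 15 were lower, 3 were higher and 5 were not called, with a median log2 change of -0.56. Pparg, which encodes the master nuclear receptor of fat cells, was expressed at 54.2, 66.2 and 54.0 FPKM in the control libraries and 9.06, 8.05 and 7.62 FPKM with EGCG. Its 3 control libraries all lay above the 3 EGCG libraries, and the log2 change was -2.67 ± 0.11 SE (adjusted p = 2.37e-09). Its partner Cebpa was at 116, 137 and 141 FPKM in the control libraries and 19.8, 17.6 and 21.5 FPKM with EGCG, again without overlap (log2 -2.69 ± 0.10 SE, adjusted p = 1.41e-09).

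Mlxipl, which encodes the glucose-sensing lipogenic factor ChREBP, had the largest change of the factors, from 20.5, 36.9 and 27.5 FPKM to 0.201, 0.214 and 0.220 FPKM (log2 -4.56 ± 0.19 SE, adjusted p = 4.27e-09). Klf15 (log2 -1.81), a factor that turns on Slc2a4, and Nr1h3 (log2 -1.59), the oxysterol receptor LXR-alpha, also fell. The early factors moved less. Cebpd was lower (log2 -0.88), Cebpb stood at 67.8, 60.6 and 117 FPKM against 62.3, 57.5 and 156 FPKM and was not called (log2 -0.10 ± 0.10 SE, adjusted p = 0.398), and the glucocorticoid receptor gene Nr3c1 was not called either (log2 -0.07, adjusted p = 0.293); after median-ratio scaling both were called lower, by -0.30 and -0.27. Klf4, an immediate early inducer of Cebpb, was higher (log2 0.82).

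Of 20 genes known to hold back adipogenesis, 12 were higher (60%, against 44.7% of all tested genes) and 3 lower (median 0.35). After median-ratio scaling 8 were higher and 5 lower (median 0.18). Runx2, the osteoblast lineage factor, rose from 2.60, 2.61 and 3.14 to 7.16, 7.17 and 8.11 FPKM (log2 1.18 ± 0.059 SE, adjusted p = 1.59e-08). Smad3 (log2 0.90), which carries TGF-beta signals, and Sox9 (log2 0.72) rose as well. Ddit3, which encodes the stress-induced C/EBP inhibitor CHOP, rose from 51.6, 32.7 and 39.4 to 95.6, 96.4 and 115 FPKM (log2 1.20 ± 0.14 SE, adjusted p = 1.72e-05). Dlk1, the preadipocyte protein Pref-1, moved against the list: it was at 6.76, 9.60 and 9.97 FPKM in the control libraries and 1.34, 1.35 and 1.52 FPKM with EGCG (log2 -1.95 ± 0.19 SE, adjusted p = 3.88e-06).

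Mature adipocyte genes showed the deepest losses. Of 24 tested, 23 were lower and none higher, all 23 by at least 2-fold, with a median log2 change of -4.77 against 0.17 over all tested genes. Cfd, the adipokine adipsin, was at 508, 676 and 648 FPKM in the control libraries and 1.10, 0.843 and 1.13 FPKM with EGCG. The groups were far apart, the ratio of means of replicates 1 and 2 was 608, and the log2 change was -8.22 ± 0.13 SE (adjusted p = 2.14e-12). Adipoq, which encodes adiponectin, was at 214, 246 and 195 FPKM in the control libraries and 2.34, 2.45 and 2.10 FPKM with EGCG (log2 -6.09 ± 0.095 SE, adjusted p = 2.14e-12).

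Fabp4, the fatty acid carrier that makes up a large part of adipocyte mRNA, fell from 3731, 4312 and 3806 FPKM to 117, 133 and 116 FPKM, a ratio of 32.1. Even so, it remained well above the floor in the EGCG libraries. Lep, the gene of leptin, was at 21.3, 21.8 and 17.8 FPKM in control cells, and the EGCG libraries held 1, 1 and 0 reads of it. Retn, the gene of resistin, went from 181, 257 and 239 to 0.515, 0.694 and 0.275 FPKM (log2 -7.08 ± 0.13 SE, adjusted p = 5.14e-12). Slc2a4, the insulin-responsive glucose transporter GLUT4, went from 39.3, 57.7 and 49.6 to 0.830, 0.497 and 0.561 FPKM (log2 -4.88 ± 0.17 SE, adjusted p = 8.07e-10). Lpl, lipoprotein lipase, was the least changed called member, at 1234, 1199 and 1206 FPKM in the control libraries and 499.8, 548 and 447 FPKM with EGCG (log2 -1.21 ± 0.079 SE). Cidea was the member not called, at no more than 0.259 FPKM in any library.

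**Figure D3:**
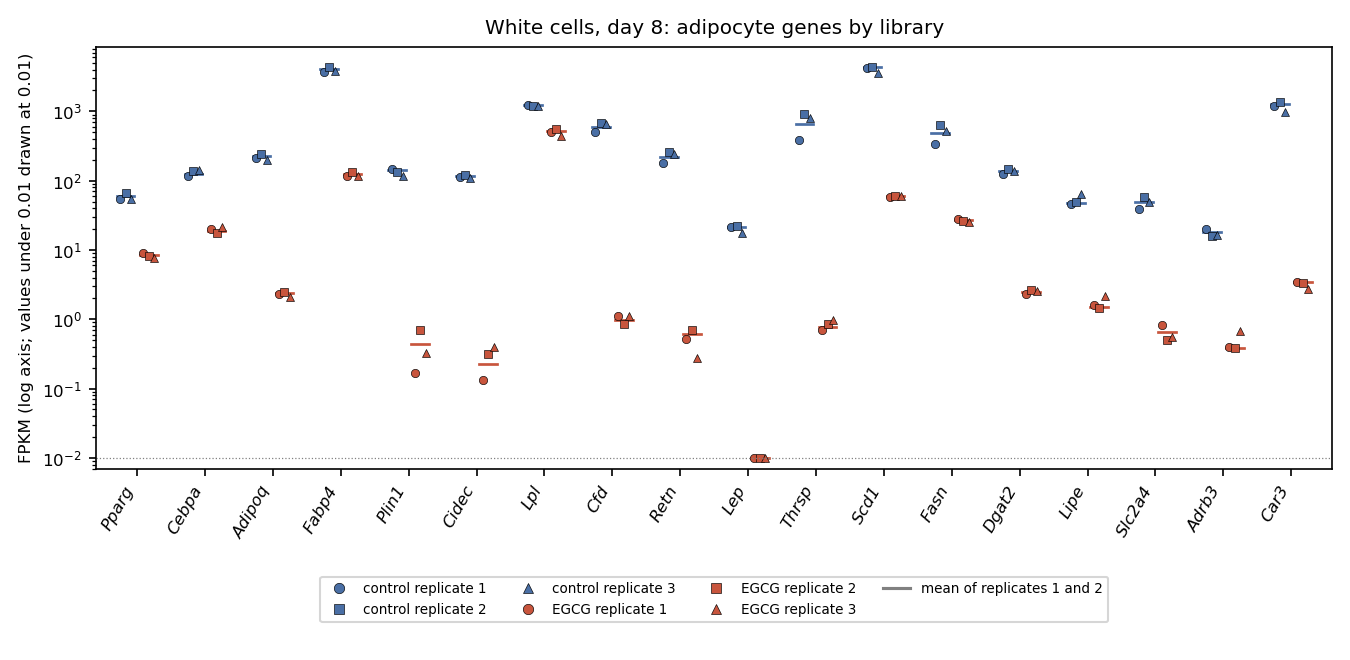
FPKM of adipocyte genes in each of the 6 libraries on a log axis, with control libraries in blue, EGCG libraries in red, one symbol shape per replicate, values under 0.01 drawn at 0.01 and bars for the mean of replicates 1 and 2. For every gene shown the 3 control libraries lie above the 3 EGCG libraries; Cfd goes from 508 to 676 FPKM down to 0.843 to 1.13 FPKM.

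Fatty acid synthesis was the metabolic pathway with the deepest change: 17 of 19 genes were lower and none was higher (median -2.57). Thrsp, the lipogenic regulator Spot 14, was listed at 380.4, 915 and 805 FPKM in the control libraries and 0.693, 0.864 and 0.964 FPKM with EGCG. It had the lowest log2 change of all genes named by the rule, -8.38 ± 0.31 SE (adjusted p = 1.30e-09), and control replicate 1 was below replicates 2 and 3. Scd1, the stearoyl-CoA desaturase, was among the most abundant transcripts of control cells, at 4254, 4425 and 3585 FPKM, and was at 57.4, 60.9 and 59.7 FPKM with EGCG (log2 -6.17 ± 0.072 SE, adjusted p = 3.65e-13).

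Fasn, fatty acid synthase, fell from 339, 638 and 519 to 27.6, 26.1 and 25.7 FPKM (log2 -4.06 ± 0.21 SE). Upstream of it, Acaca, acetyl-CoA carboxylase, fell by 7.10-fold and Acly, ATP citrate lyase, by 6.45-fold, as ratios of mean FPKM. Me1 (log2 -4.08), a source of NADPH for synthesis, followed. The desaturases of polyunsaturated fatty acids were apart from this: Fads1 was at 36.2, 37.4 and 35.3 FPKM against 37.3, 36.9 and 37.3 FPKM and Fads2 at 29.6, 29.3 and 23.1 FPKM against 31.2, 28.0 and 26.4 FPKM, and neither was called (adjusted p = 0.845 and 0.971), although median-ratio scaling put both slightly lower (log2 -0.19 and -0.20, called).

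Triglyceride assembly and breakdown fell together. In triglyceride synthesis 12 of 16 genes were lower and 3 higher (median -1.63). Gpd1, which makes the glycerol backbone, went from 102, 117 and 161 to 1.20, 1.46 and 1.96 FPKM (log2 -5.57 ± 0.10 SE), and Dgat2, which adds the last acyl chain, from 126, 148 and 137 to 2.31, 2.62 and 2.57 FPKM (log2 -5.32 ± 0.093 SE). The higher members were the less adipocyte-restricted Agpat6, Lpin2 and Lpin3, with log2 changes of 0.21, 0.36 and 0.35; Agpat6 and Lpin3 were no longer called after median-ratio scaling (0.01 and 0.16). In lipolysis 14 of 16 genes were lower and 1 higher (median -1.69).

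Lipe, hormone-sensitive lipase, was at 46.4, 49.4 and 65.1 FPKM in the control libraries and 1.59, 1.43 and 2.14 FPKM with EGCG (log2 -4.28 ± 0.10 SE), and Pnpla2, the first triglyceride lipase, fell by 14.2-fold. Adrb3, the adipocyte beta-adrenergic receptor, was at 20.1, 15.8 and 16.4 FPKM against 0.392, 0.386 and 0.683 FPKM (log2 -3.76 ± 0.11 SE). The higher member was Adra2a (log2 0.40), the receptor that restrains lipolysis. Lipid droplet proteins moved in both directions, with 9 of 17 lower and 6 higher (median -0.71; 3 higher and 9 lower after median-ratio scaling). Plin1, the adipocyte perilipin, went from 147, 135 and 119 to 0.171, 0.707 and 0.321 FPKM (log2 -6.65 ± 0.14 SE, adjusted p = 1.08e-11), and Cidec, which fuses droplets, from 112, 119.9 and 111 to 0.134, 0.321 and 0.394 FPKM (log2 -6.57 ± 0.11 SE). Plin2, found on droplets in most cells, fell by 1.83-fold, and Bscl2 (log2 -0.71), seipin, and Abhd5 (log2 -0.96), the lipase activator, fell too, while the likewise widespread Plin3 rose from 26.8, 30.4 and 30.7 to 52.99, 52.1 and 52.9 FPKM (log2 0.86 ± 0.058 SE).

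Mitochondrial pathways fell by less. Of 20 genes of fatty acid oxidation, 19 were lower and 1 was higher (median -0.61); of 22 genes of the citric acid cycle and pyruvate entry, 19 were lower and none higher (median -0.67). Branched-chain amino acid breakdown, which feeds lipogenesis in fat cells, had 18 of 20 lower and 1 higher (median -0.92). Oxidative phosphorylation had 30 of 44 lower and 1 higher (median -0.33).

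The member with the deepest loss in the citric acid cycle list was Pcx, pyruvate carboxylase, which supplies oxaloacetate for citrate export in lipogenic cells: it was at 227, 304 and 278 FPKM in the control libraries and 13.7, 12.8 and 12.9 FPKM with EGCG (log2 -4.21 ± 0.11 SE, adjusted p = 9.09e-11). The cycle enzyme citrate synthase, Cs, fell by 1.89-fold, from 119, 129 and 105 to 67.4, 63.6 and 61.1 FPKM. Acsl1, which activates fatty acids for both storage and oxidation, fell from 125, 110.5 and 96.8 to 3.75, 3.86 and 3.69 FPKM (log2 -4.63 ± 0.089 SE). Cpt1a, which admits fatty acids into mitochondria in most tissues, rose from 19.3, 14.1 and 14.4 to 27.0, 27.5 and 25.1 FPKM (log2 0.69 ± 0.11 SE, adjusted p = 1.57e-04). Aldh6a1 (log2 -2.33) and Bckdhb (log2 -1.75) led the losses in branched-chain amino acid breakdown.

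Thermogenic genes gave 10 lower and 2 higher of 19 (median -0.45; 0 higher and 11 lower after median-ratio scaling), most of them at low levels in these white cells. Cox7a1, a respiratory subunit typical of muscle and brown fat, was at 22.5, 19.7 and 17.6 FPKM in the control libraries and 7.98, 6.96 and 8.96 FPKM with EGCG (log2 -1.39 ± 0.15 SE). Ppargc1a, the coactivator PGC-1-alpha, stayed under 1 FPKM in all 6 libraries (log2 -0.56 ± 0.12 SE), and Prdm16 was at 1.11, 1.05 and 0.876 FPKM against 1.50, 1.50 and 1.69 FPKM (log2 0.26 ± 0.08 SE, adjusted p = 0.0124), a call that median-ratio scaling ended (log2 0.15).

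Insulin signalling genes moved in both directions. Of 24 genes, 13 were lower and 7 higher (median -0.49; 4 higher and 16 lower after median-ratio scaling). The receptor Insr was at 13.2, 13.1 and 10.9 FPKM against 9.04, 9.21 and 7.34 FPKM (log2 -0.48 ± 0.062 SE) and its substrate Irs1 at 3.79, 3.40 and 2.64 FPKM against 2.27, 2.25 and 1.90 FPKM (log2 -0.49 ± 0.09 SE), both lower, while Igf1r, the receptor of insulin-like growth factor 1, was higher, at 7.99, 7.79 and 5.66 FPKM against 17.6, 17.1 and 13.7 FPKM (log2 1.05 ± 0.062 SE, adjusted p = 5.83e-08). The binding proteins parted: Igfbp2 (log2 -1.70), Igfbp3 (log2 -1.57) and Igfbp4 (log2 -2.01) fell and Igfbp5 (log2 1.50) rose. Akt1 rose (log2 0.69), and Akt2, the form tied to glucose uptake, was not called (log2 -0.02, adjusted p = 0.744) except after median-ratio scaling (log2 -0.22).

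Beyond those already given, adipokine genes included Agt, angiotensinogen, which went from 145, 438 and 414 to 3.50, 4.75 and 5.24 FPKM, with control replicate 1 again below replicates 2 and 3 (log2 -5.64 ± 0.36 SE). Rbp4, the retinol carrier, fell from 143, 133 and 122 to 4.42, 4.58 and 4.85 FPKM (log2 -4.66 ± 0.10 SE). In all 13 of 21 adipokine genes were lower and 4 higher (median -0.69), with Il6, Metrnl and Fstl1 among the higher ones. Genes of caveolae, the membrane pits that are abundant on adipocytes, were lower in 5 of 8 and higher in 2 (median -0.86; 0 higher and 5 lower after median-ratio scaling). Cav1, their main coat protein, was at 179, 246 and 221 FPKM in the control libraries and 94.5, 93.4 and 87.1 FPKM with EGCG (log2 -1.15 ± 0.13 SE).

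Interferon-stimulated genes fell almost without exception. These antiviral and antigen-presenting genes are switched on through factors such as STAT2 and IRF9, which bind the interferon-stimulated response element in their promoters. Of 28 tested, 27 were lower and none was higher, 26 of them by at least 2-fold (median -2.14). Ifit2 was the exception, at 8.78, 9.16 and 8.15 FPKM against 10.6, 9.65 and 8.61 FPKM (log2 0.16 ± 0.10 SE, adjusted p = 0.207).

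The promoters of 5 members are shown, taken only from those that carry the element, so they do not stand for the list. They are from RefSeq, mouse build GRCm38.p6, 5′ to 3′ on the strand of the gene, and capitals mark the element as searched, GAAA, any 2 bases, GAAA, on either strand (as TTTC, 2 bases, TTTC when read from the other strand), overlapping matches joined. Ifit1 lies at chr19:34640784-34640833 (plus strand), Gbp3 at chr3:142559985-142560034 (plus), Isg15 at chr4:156200855-156200904 (minus), Oas1a at chr5:120907526-120907565 (minus) and Bst2 at chr8:71537567-71537616 (minus).
Ifit1: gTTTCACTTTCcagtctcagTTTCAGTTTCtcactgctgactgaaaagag
Gbp3: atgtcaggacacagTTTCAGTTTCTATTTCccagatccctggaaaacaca
Isg15: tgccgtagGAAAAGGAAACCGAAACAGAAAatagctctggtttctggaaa
Oas1a: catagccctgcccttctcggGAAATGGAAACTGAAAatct
Bst2: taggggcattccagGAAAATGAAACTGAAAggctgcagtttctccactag

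Over windows of 250 bases before to 50 bases after the start, 12 of the 22 interferon-stimulated genes with a window held the element (54.5%). Members without a match included Oasl2 (log2 -3.60) and Irf7 (log2 -3.45), the deepest changes among those with a window. It was found in 3.03% of the 9070 tested genes with a window and in 3.44% of all 32851 windows. Among 490 genes called at least 2-fold lower the share was 8.16%, or 5.96% of the 470 left without the interferon list, and among 358 called at least 2-fold higher it was 2.79%. This motif was added after the data were seen. A match is a description of letters and no evidence of binding.

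Ifit1, an RNA-binding antiviral protein with 2 matches, was at 35.5, 34.7 and 28.7 FPKM in the control libraries and 2.12, 2.50 and 3.66 FPKM with EGCG. The groups were far apart, and the change was -3.45 ± 0.33 SE on the log2 scale (adjusted p = 2.71e-06). Isg15, a ubiquitin-like modifier with 3 matches, was at 136, 122 and 121 FPKM in the control libraries and 15.5, 15.5 and 17.3 FPKM with EGCG (log2 -2.97 ± 0.16 SE, adjusted p = 2.32e-08). Rtp4, which had the deepest change of the list, went from 48.6, 57.8 and 55.6 to 1.77, 2.04 and 2.46 FPKM (log2 -4.22 ± 0.18 SE). Irf7, the factor that amplifies type I interferon production, went from 51.5, 47.0 and 48.2 to 3.81, 3.38 and 4.29 FPKM (log2 -3.45 ± 0.20 SE).

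The signalling factors moved in the same direction by smaller amounts: Stat2 from 52.2, 57.1 and 42.8 to 14.6, 15.1 and 13.8 FPKM (log2 -1.81 ± 0.10 SE) and Irf9 by -1.17 on the log2 scale. Antigen presentation followed. H2-K1, a class I heavy chain, was at 422, 446 and 455 FPKM in the control libraries and 94.9, 92.9 and 103 FPKM with EGCG (log2 -2.20 ± 0.048 SE), although near-identical class I genes may share its reads. B2m, the light chain that is sometimes used as a reference gene, fell by 2.54-fold, from 1319, 1488 and 1437 to 539.9, 565 and 587 FPKM. Cxcl10, the interferon-induced chemokine, was at 7.46, 7.86 and 10.4 FPKM against 0.457, 0.596 and 1.63 FPKM (log2 -2.51 ± 0.37 SE).

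**Figure D4:**
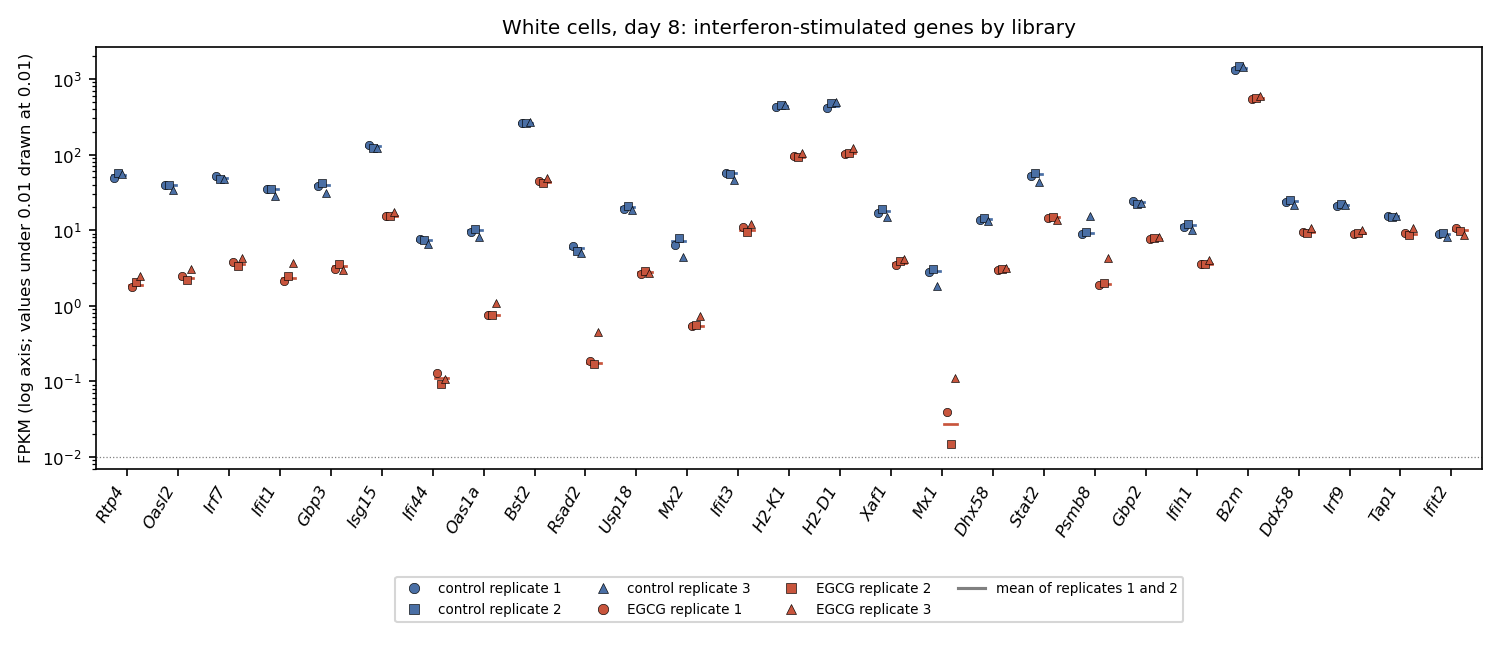
FPKM of 27 interferon-stimulated genes in the 6 libraries on a log axis, with control libraries in blue, EGCG libraries in red, one symbol shape per replicate and bars for the mean of replicates 1 and 2. Ifit1 lies at 28.7 to 35.5 FPKM in control and 2.12 to 3.66 FPKM in EGCG libraries, and Ifit2, the member that was not called, overlaps.

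Macrophages also express many interferon-stimulated genes, and the macrophage markers given above fell with them; their part in the result was not tested. Bst2, which encodes the antiviral membrane protein tetherin, was at 262, 259.9 and 271 FPKM in the control libraries and 44.4, 41.8 and 49.3 FPKM with EGCG (log2 -2.57 ± 0.14 SE).

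Complement and acute phase genes, which adipocytes secrete in large amounts, were lower throughout: 18 of 18 tested, 17 by at least 2-fold (median -2.52). Cfd belongs to this list too. Hp, haptoglobin, was at 1918, 2542 and 2543 FPKM in the control libraries and 16.4, 19.6 and 19.2 FPKM with EGCG (log2 -6.87 ± 0.12 SE, adjusted p = 2.55e-12), and C3, the central complement component, at 595, 818 and 696 FPKM in the control libraries and 11.6, 12.3 and 11.3 FPKM with EGCG (log2 -5.75 ± 0.14 SE). The groups did not overlap for either, and the ratios of mean FPKM (replicates 1 and 2, control over EGCG) were 124 and 59.1.

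Orm1, an acute phase glycoprotein, was at 70.3, 59.1 and 40.6 FPKM in control cells and had 0, 1 and 3 reads with EGCG. C4b fell by 11.1-fold and Serping1, the C1 inhibitor, by 4.46-fold. C1qa, a macrophage product and complement starter, went from 17.3, 26.5 and 23.96 to 1.61, 1.79 and 2.19 FPKM (log2 -3.06 ± 0.15 SE). Saa1, Saa2 and Saa3 are close paralogs whose reads may have been split; Saa3, the most abundant, went from 728, 783 and 637 to 38.3, 50.6 and 36.7 FPKM (log2 -4.07 ± 0.18 SE).

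The other lowest genes named by the rule were Car3 (log2 -8.17), a carbonic anhydrase that is abundant in fat, at 1197, 1358 and 993 FPKM in the control libraries and 3.48, 3.38 and 2.78 FPKM with EGCG, and the major urinary protein genes Mup10 (log2 -7.28) and Mup11 (log2 -6.45), paralogs whose reads cannot be told apart with certainty. Mup10 was at 316, 423 and 133 FPKM in the control libraries and 1.12, 1.62 and 0.398 FPKM with EGCG. Mup11 was at 127, 168 and 4.54 FPKM in the control libraries and 0.558, 0.809 and 0 FPKM with EGCG. For both, control replicate 3 lay below control replicates 1 and 2, by far for Mup11.

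Il1rl1, which encodes ST2, the receptor of interleukin 33, lies on chromosome 1, 40486415 to 40522260 (build NCBIM37). It was at 0.963, 0.414 and 0.603 FPKM in the control libraries and 28.1, 27.3 and 25.9 FPKM with EGCG. All control libraries stayed under 1 FPKM, the EGCG libraries were close to each other, and the ratio of means of replicates 1 and 2 was 40.3 (log2 4.11 ± 0.19 SE, adjusted p = 9.03e-09). Its ligand gene Il33 was at 20.7, 10.2 and 10.6 FPKM against 11.5, 11.6 and 9.94 FPKM and was not called (log2 -0.31 ± 0.26 SE, adjusted p = 0.312) unless control replicate 2 was left out (log2 -0.78).

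Prl2c2, proliferin, a growth factor of the prolactin family first known from placenta and proliferating cell lines, went from 0.142, 0.0293 and 0.355 to 15.2, 13.7 and 13.8 FPKM (log2 3.83 ± 0.19 SE, adjusted p = 1.60e-08). Several near-identical proliferin genes exist, so its reads may have been split. Hmga2, a chromatin protein of growing mesenchymal cells, went from 2.31, 2.54 and 2.55 to 34.2, 32.6 and 32.7 FPKM (log2 3.33 ± 0.055 SE). Ass1, which joins citrulline and aspartate on the way to arginine, went from 11.4, 8.20 and 12.1 to 94.3, 95.8 and 139.8 FPKM (log2 3.17 ± 0.14 SE).

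The remaining names on the high side were Cck (log2 3.14), the peptide cholecystokinin, the neuronal kinesin Kif1a (log2 2.93), 1700007K13Rik (log2 2.79), Olr1 (log2 2.59), a receptor of oxidized lipoprotein, the protease inhibitor Serpine2 (log2 2.54) and Anxa8 (log2 2.52), an annexin. Each of the 20 genes named by the rule had separate groups over the 6 libraries. The rule took the most extreme changes and required a matching direction in every replicate. The separation therefore followed largely from the choice of genes and is no further evidence. Serpine2 was the most abundant of the high ones, at 35.4, 32.7 and 37.9 FPKM in the control libraries and 206, 199.8 and 213 FPKM with EGCG.

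The promoters of the 2 highest and the 2 lowest genes with a RefSeq window are shown so that the ends of the distribution can be compared in sequence. Each is the 250 bases before the start (GRCm38.p6, 5′ to 3′ on the strand of the gene), with capitals marking any of 5 motifs searched on both strands, namely the C/EBP site TTGC, then any 2 bases, then AA, the E-box CACGTG, the AP-1 site TGANTCA, the TEAD site ACATTCC, and the PPAR/RXR direct repeat AGGTCA, 1 base, AGGTCA with at most 2 mismatches. Il1rl1, the first of its windows, lies at chr1:40429320-40429569 (plus strand), Hmga2 at chr10:120476470-120476719 (minus), Thrsp at chr7:97417551-97417800 (minus) and Cfd at chr10:79890603-79890852 (plus). Prl2c2 was not matched to a window.
Il1rl1: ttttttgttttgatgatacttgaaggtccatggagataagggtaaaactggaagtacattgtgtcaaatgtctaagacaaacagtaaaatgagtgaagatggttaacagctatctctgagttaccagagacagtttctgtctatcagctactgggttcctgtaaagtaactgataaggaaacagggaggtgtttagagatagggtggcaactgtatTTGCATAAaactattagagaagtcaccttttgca
Hmga2: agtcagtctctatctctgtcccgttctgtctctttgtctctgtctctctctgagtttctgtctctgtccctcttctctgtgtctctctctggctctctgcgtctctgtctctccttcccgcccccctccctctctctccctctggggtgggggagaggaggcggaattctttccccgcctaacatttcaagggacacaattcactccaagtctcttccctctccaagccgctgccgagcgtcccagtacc
Thrsp: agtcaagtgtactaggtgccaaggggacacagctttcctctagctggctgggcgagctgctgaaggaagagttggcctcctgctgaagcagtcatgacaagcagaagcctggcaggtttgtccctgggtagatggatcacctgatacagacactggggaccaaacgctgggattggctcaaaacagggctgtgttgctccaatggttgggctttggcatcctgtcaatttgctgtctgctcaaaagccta
Cfd: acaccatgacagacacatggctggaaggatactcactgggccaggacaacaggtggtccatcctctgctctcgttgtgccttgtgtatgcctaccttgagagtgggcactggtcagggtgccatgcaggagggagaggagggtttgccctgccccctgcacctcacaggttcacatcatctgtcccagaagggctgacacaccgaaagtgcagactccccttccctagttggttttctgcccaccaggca

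Il1rl1 held 1 match, to the C/EBP site, 34 to 27 bases before the start, and the other promoters held none. In 358 windows of genes called at least 2-fold higher, 490 called at least 2-fold lower and 9070 tested, the C/EBP site was in 10.1%, 12% and 8.13%, and the E-box in 11.5%, 7.55% and 10.4%. The AP-1 site was in 7.26%, 8.78% and 4.99%, the TEAD site in 1.4%, 4.69% and 2.58%, and the direct repeat in 1.68%, 5.51% and 2.8%. The shares are descriptions with no test.

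Progenitor and matrix genes did not move as a block. Of 20 genes marking adipose progenitors, 11 were higher and 7 lower (median 0.49; 10 higher and 8 lower after median-ratio scaling). Pdgfra, the receptor that marks fibro-adipogenic progenitors, was at 186, 154 and 146 FPKM in the control libraries and 116, 121 and 97.7 FPKM with EGCG (log2 -0.51 ± 0.086 SE), while Pdgfrb, its relative on mural precursors, was at 80.0, 71.3 and 72.6 FPKM in the control libraries and 149.8, 146 and 149 FPKM with EGCG (log2 0.96 ± 0.052 SE). One receptor was thus lower and the other higher, without overlap in either. Among the others, Cd34 (log2 -1.05), Pi16 (log2 -1.53) and Gsn (log2 -1.68) fell, and Anxa3 (log2 1.74), Icam1 (log2 1.55) and Cd24a (log2 1.47) rose. Gsn was at 1525, 3622 and 3536 FPKM in the control libraries and 741, 720 and 705 FPKM with EGCG. Its control replicate 1 thus lay far below the other controls.

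Collagens and matrix proteins gave 14 of 28 lower, 10 by at least 2-fold, and 10 higher (median -0.35; 6 higher and 16 lower after median-ratio scaling). Col1a1, the major fibrillar collagen chain, was at 3223, 2431 and 3217 FPKM in the control libraries and 962, 1017 and 1179 FPKM with EGCG (log2 -1.50 ± 0.10 SE, adjusted p = 1.96e-07). Col6a1 (log2 -1.62), a chain of the collagen that surrounds adipocytes, and Eln (log2 -2.89), elastin, fell as well. Tnc, tenascin C, a matrix protein of wounds, moved the other way, from 88.2, 59.1 and 64.3 to 248, 238 and 249 FPKM (log2 1.74 ± 0.13 SE, adjusted p = 4.31e-07), and the crosslinking enzymes Lox (log2 0.65) and Loxl1 (log2 0.74) were higher.

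Proteases that act on the matrix and their inhibitors were mostly higher, 13 of 22 against 3 lower (median 0.51; 12 higher and 5 lower after median-ratio scaling). Timp1, an inhibitor of metalloproteases, rose from 217, 199 and 221 to 646, 684 and 839 FPKM (log2 1.67 ± 0.095 SE), and Timp3 from 41.1, 22.4 and 22.7 to 110.0, 108 and 105 FPKM (log2 1.81 ± 0.20 SE). Timp4, a member of that family that is abundant in fat, fell from 10.1, 15.3 and 16.4 to 0.122, 0.283 and 0.217 FPKM (log2 -3.49 ± 0.17 SE). Members of one family of inhibitors thus differed in direction. Plat (log2 1.77), tissue plasminogen activator, rose.

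Contractile genes moved in both directions, with 8 of 18 higher (44.4%, against 44.7% of all tested genes) and 4 lower (median 0.25). Cald1 (log2 1.41), Actn1 (log2 1.35) and Tpm1 (log2 0.95), which most fibroblasts express, rose, as did Tagln (log2 0.92; reads may be shared with the overlapping Pcsk7) and Tpm2 (log2 0.71), known from smooth muscle, and Myh11 (log2 -0.68) and Cnn1 (log2 -0.86), which mark mature smooth muscle, fell. Acta2, smooth muscle actin and a myofibroblast marker, also rose, and was at 233, 162 and 182 FPKM in the control libraries and 329.6, 314 and 409 FPKM with EGCG (log2 0.72 ± 0.18 SE). YAP and TAZ are mechanically controlled coactivators, and 15 of 20 genes of that pathway were higher and 3 lower (median 0.60; 12 higher and 4 lower after median-ratio scaling).

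Ctgf, a standard YAP target, was at 88.2, 53.8 and 103 FPKM in the control libraries and 292, 270.2 and 537 FPKM with EGCG (log2 2.01 ± 0.18 SE, adjusted p = 1.92e-06). Cyr61 (log2 1.17) and Ankrd1 (log2 1.75) rose with it. The lower members were Amotl2 (log2 -0.34), Igfbp3 and Nt5e (log2 -2.66), the ectoenzyme CD73. For Ctgf the control level in replicate 3 lay above the other controls, but every EGCG library was above every control library. AP-1 and EGR factors, the immediate early genes, were higher in 10 of 17 and lower in none (median 0.53; 9 higher and 0 lower after median-ratio scaling), led by Atf3 (log2 1.88), Fosl1 (log2 1.60) and Egr3 (log2 1.16).

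In the Wnt, TGF-beta and BMP list, 16 of 36 were higher (44.4%, against 44.7% of all tested genes) and 11 lower (median 0.12), a balance that turned to 13 higher and 14 lower after median-ratio scaling. Tgfb1, which encodes a growth factor known to hold back adipogenesis, was at 15.8, 15.7 and 18.5 FPKM in the control libraries and 36.2, 37.0 and 47.0 FPKM with EGCG (log2 1.17 ± 0.066 SE, adjusted p = 3.88e-08). Grem1, a secreted BMP antagonist, rose from 0.441, 0.216 and 0.189 to 4.99, 4.13 and 5.01 FPKM (log2 2.06 ± 0.16 SE), and Inhba, the activin A chain, from 12.02, 5.40 and 3.70 to 35.1, 33.6 and 18.4 FPKM (log2 1.95 ± 0.27 SE). Wnt5a (log2 0.67) and Wnt16 (log2 1.65) were also higher. Axin2, a common readout of beta-catenin signalling, was lower, at 2.16, 2.56 and 1.90 FPKM against 1.54, 1.56 and 1.43 FPKM (log2 -0.40 ± 0.093 SE, adjusted p = 0.00284).

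Chemokines and cytokines were divided, 10 of 26 higher and 9 lower around a median of 0.00; after median-ratio scaling the median was -0.06. Ccl8 (log2 1.67) and Il6 (log2 1.14) rose, while Cxcl9 (log2 -0.96), Cxcl16 (log2 -1.25) and Il1rn (log2 -1.50), the interleukin 1 receptor antagonist, fell. Ccl2, the chief attractant of monocytes, was at 24.1, 15.0 and 14.1 FPKM against 17.6, 15.4 and 18.7 FPKM and was not called (log2 -0.20 ± 0.19 SE, adjusted p = 0.374) unless control replicate 2 was left out (log2 -0.53).

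EGCG is a redox-active polyphenol, and targets of NRF2, the factor that answers electrophiles, moved in both directions. Of 27 tested, 14 were higher and 8 lower (median 0.30; 12 higher and 10 lower after median-ratio scaling). Hmox1, heme oxygenase 1, was at 148, 128 and 138 FPKM in the control libraries and 573, 564 and 589 FPKM with EGCG (log2 2.04 ± 0.078 SE, adjusted p = 2.01e-09). Gclc, the first enzyme of glutathione synthesis, rose from 8.82, 11.1 and 8.60 to 28.8, 25.2 and 20.6 FPKM (log2 1.36 ± 0.10 SE), and Nqo1 from 2.95, 3.66 and 3.54 to 4.94, 5.14 and 5.19 FPKM (log2 0.49 ± 0.10 SE). Txnrd1 (log2 0.92), Srxn1 (log2 0.96) and Ephx1 (log2 1.66) rose too.

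The 8 lower members were G6pdx (log2 -1.46), Tkt (log2 -1.64), Taldo1 (log2 -0.85) and Pgd of the pentose phosphate pathway, catalase, Cat (log2 -1.22), the glutathione transferase gene Gsta3 (log2 -4.36), which has close paralogs, Blvrb (log2 -0.72), a biliverdin reductase, and Osgin1 (log2 -0.41). The change of Pgd was small (log2 -0.19, adjusted p = 0.0498), and its call was lost with the replicate block (adjusted p = 0.061).

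Genes of the amino acid and unfolded protein responses were mostly higher, 18 of 25 against 1 lower (median 0.46), although 5 were lower and 13 higher after median-ratio scaling and 5 lower and 15 higher with quantile normalization. Atf4 itself was at 154, 114 and 132 FPKM in the control libraries and 224, 217 and 244 FPKM with EGCG (log2 0.73 ± 0.11 SE), and Chac1, which degrades glutathione, rose from 2.80, 1.25 and 2.10 to 10.4, 8.17 and 11.5 FPKM (log2 1.81 ± 0.20 SE). Xbp1 was the lower member (log2 -0.48). Not all classical ATF4 targets moved: Trib3 (log2 0.09) and Psat1 (log2 -0.04) were not called (adjusted p = 0.54 and 0.556). Psat1 was called lower after median-ratio scaling (log2 -0.24), and Trib3 higher without control replicate 1 (log2 0.34).

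Of 19 cell cycle inhibitors, D cyclins and p53 targets, 11 were higher and 5 lower (median 0.48; 11 higher and 8 lower after median-ratio scaling). Cdkn1a, the p53 target p21, was at 127, 121 and 116 FPKM in the control libraries and 323, 316 and 325 FPKM with EGCG (log2 1.36 ± 0.06 SE, adjusted p = 5.95e-09). Mdm2, which degrades p53 and is induced by it, rose from 31.2, 27.4 and 26.4 to 114, 109.8 and 106 FPKM (log2 1.90 ± 0.081 SE), and Ccng1 from 62.4, 55.8 and 54.7 to 239.8, 218 and 213 FPKM (log2 1.94 ± 0.063 SE). All 3 EGCG libraries lay above all 3 controls for each.

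Several other inhibitors of cyclin-dependent kinases went the other way, with Cdkn2c (log2 -1.37), Cdkn1c (log2 -1.06), Cdkn2a (log2 -0.97) and Cdkn2b (log2 -0.52) lower, and Ccnd1, cyclin D1, rose (log2 1.76). Genes of DNA replication and mitosis moved little, 9 of 26 higher and none lower (median 0.09, against -0.04 after median-ratio scaling, when 3 were higher and 1 lower). Rrm2, a subunit of ribonucleotide reductase, rose from 3.71, 4.82 and 4.95 to 14.9, 13.3 and 14.2 FPKM (log2 1.52 ± 0.13 SE), while Mki67, the proliferation antigen, was at 1.72, 1.59 and 1.52 FPKM against 1.67, 1.71 and 1.31 FPKM (log2 0.02 ± 0.076 SE, adjusted p = 0.841) and Cdk1 at 3.16, 2.96 and 3.30 FPKM against 3.22, 2.96 and 3.24 FPKM (log2 0.01 ± 0.081 SE, adjusted p = 0.92).

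Genes of cholesterol synthesis and uptake moved in both directions, 12 of 22 higher (54.5%, against 44.7% of all tested genes) and 7 lower (31.8%, against 18.9%), with a median of 0.43. Srebf2, the factor that drives the pathway, was at 26.2, 21.2 and 21.5 FPKM in the control libraries and 52.5, 52.0 and 51.7 FPKM with EGCG (log2 1.12 ± 0.072 SE, adjusted p = 1.07e-07), and Srebf1, whose product drives fatty acid synthesis, at 59.8, 69.9 and 70.3 FPKM in the control libraries and 35.2, 33.5 and 36.0 FPKM with EGCG (log2 -0.90 ± 0.075 SE). The pair of related factors thus went in opposite directions. Pmvk (log2 -1.39) and Cyp51 (log2 -0.91) fell.

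Targets of the glucocorticoid receptor, which the dexamethasone of the induction medium activates, were lower in 9 of 16 and higher in 3 (median -0.45). By day 8 the cells had spent 4 days in differentiation medium, for which dexamethasone is not listed. Sult1a1, a sulfotransferase, went from 50.5, 98.3 and 90.7 to 1.49, 1.52 and 1.44 FPKM (log2 -4.84 ± 0.23 SE). Fkbp5 was at 52.7, 103 and 102 FPKM in the control libraries and 39.2, 37.9 and 33.8 FPKM with EGCG (log2 -0.92 ± 0.21 SE) and Tsc22d3 at 37.4, 96.2 and 93.3 FPKM in the control libraries and 28.3, 24.8 and 24.4 FPKM with EGCG (log2 -1.15 ± 0.29 SE). For both, control replicate 1 lay far below the other controls, and their calls were lost when the spread was estimated from these 2 groups alone. Sgk1 moved against the list, with a log2 change of 0.94.

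Of 16 genes often used as references, 8 were higher (50%) and 3 lower (18.8%), near the 44.7% and 18.9% of all tested genes (median 0.14, and -0.03 after median-ratio scaling, when 7 were higher and 7 lower). Tbp (log2 0.05), Ppib (log2 -0.02) and Gapdh (log2 -0.03) had the smallest differences and were not called, though median-ratio scaling put Ppib and Gapdh lower by -0.22 and -0.23, called. Tfrc (log2 0.96) and Gusb (log2 0.76) rose and B2m fell.

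The change with EGCG in white cells on day 8 was then compared with that in brown cells on the same day and in white cells on day 4, as differences of effects in the same limma fit. The effect differed from BAT day 8 for 5520 genes (39.2%) and from WAT day 4 for 6962 (49.4%). Against BAT day 8, 2782 differences were positive and 2738 negative, 537 and 317 of them by at least 2-fold. Against WAT day 4, 4187 were positive and 2775 negative, 374 and 763 by at least 2-fold. A positive difference means that EGCG minus control was higher in white cells on day 8. The control levels of the other cells are not given here. On this scale a gene that is low in control cells can fall only a little. A smaller fall may therefore go with a lower control level, which was not tested.

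Mitochondrial genes separated the depots. The median log2 change of oxidative phosphorylation genes was -0.33 in white cells and -1.37 in brown cells on day 8, and the difference was called positive for 43 of 44. For fatty acid oxidation the medians were -0.61 and -2.03 (18 of 20 positive), and for the citric acid cycle -0.67 and -1.74 (21 of 22 positive). Chchd10, a mitochondrial protein, had a difference of 3.61 ± 0.13 SE (adjusted p = 3.30e-08), with log2 changes of -1.04 in white and -4.65 in brown cells. Hadhb, of the trifunctional protein of beta-oxidation, changed by -0.65 and -2.69, and Phyh, a peroxisomal enzyme, by -0.72 and -2.99.

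Interferon-stimulated genes separated the depots in the opposite sense. Their median change was -2.14 in white and -0.50 in brown cells, and the difference was called negative for 27 of 28 and positive for 1, H2-K1. Ifit1 changed by -3.45 in white and -0.81 in brown cells (difference -2.64 ± 0.47 SE, adjusted p = 9.85e-04), and on day 4 in white cells by -2.55. The genes with the smallest adjusted p on the negative side were the matrix and membrane genes Tmem119 (-1.31 and -0.17 in white and brown cells), Aebp1 (0.56 and 1.98), Cd248 (-0.11 and 1.24) and Sulf2 (0.88 and 2.08), together with Adipoq (-6.09 and -3.34).

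Glycolysis and hypoxia genes separated both the depots and the days. In white cells on day 8 their medians were close to or below that of all genes, while single members ranged widely: glycolysis had 12 of 21 higher and 5 lower (median 0.21, or 0.01 with median-ratio scaling, when 8 were higher and 8 lower) and 5 higher by at least 2-fold, and targets of hypoxia-inducible factor had 7 of 20 higher and 5 lower (median -0.06). On day 4 in white cells the medians were 1.25 and 1.55, and on day 8 in brown cells -0.86 and -1.06. The difference from WAT day 4 was called negative for 17 of 21 and 20 of 20 genes, and that from BAT day 8 positive for 19 of 21 and 16 of 20.

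Slc2a1, the basal glucose transporter GLUT1, was the glycolysis gene with the highest change on day 8, at 35.9, 27.8 and 33.9 FPKM in the control libraries and 100.1, 93.0 and 120.2 FPKM with EGCG (log2 1.58 ± 0.10 SE). Hk2, the hexokinase that traps glucose, was at 14.1, 14.0 and 13.9 FPKM in the control libraries and 32.5, 32.8 and 32.7 FPKM with EGCG (log2 1.17 ± 0.034 SE) and changed by -0.86 in brown cells (difference 2.03 ± 0.048 SE, adjusted p = 1.03e-09). Hk1 (log2 1.18), Slc16a3 (log2 1.14), a lactate exporter, and Eno2 (log2 1.04) also rose at least 2-fold, and Pfkfb3 fell (log2 -0.80), a call lost when the spread came from the 2 groups alone. Vegfa, a hypoxia target, was at 98.7, 95.7 and 82.7 FPKM against 93.0, 95.6 and 90.1 FPKM in white cells on day 8 and was not called (log2 -0.04, adjusted p = 0.42; -0.25 and called after median-ratio scaling), while its log2 change was 1.48 on day 4 and -1.35 in brown cells on day 8. Gpi1, a glycolytic isomerase, changed by -0.22, 1.65 and -1.83 in the same 3 comparisons.

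Adipocyte genes had smaller fitted changes on day 4, where their control levels are not given here. The mature adipocyte list had a median of -2.02 on day 4 and -4.77 on day 8 in white cells, and -4.72 in brown cells on day 8; the difference from day 4 was called negative for 22 of 24. Scd1 changed by -2.03 on day 4 and -6.17 on day 8 (difference -4.14 ± 0.10 SE, adjusted p = 4.26e-10), Pnpla3, a lipogenic acyltransferase and lipase, by 0.10 and -5.18, and Lrg1, an acute phase glycoprotein, by -0.26 and -5.31. Lep and Orm1 were also named by the rule here, and the size of their fitted differences depends on the pseudocount because of the few reads in the EGCG libraries. Complement and acute phase genes had medians of -0.61 on day 4 and -2.52 on day 8.

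On the positive side of the difference from day 4, the named genes were Arhgef40 (-1.31 on day 4 and 0.54 on day 8), Uap1l1 (0.35 and 1.87), Lrrc59 (-0.90 and 0.18), Cygb (-1.49 and 0.58), the cytoglobin gene, and Atp6v1b2 (-0.07 and 1.08), a subunit of the vacuolar proton pump. The medium also changed between day 4 and day 8, so its part cannot be told apart from that of time.

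**Figure D5:**
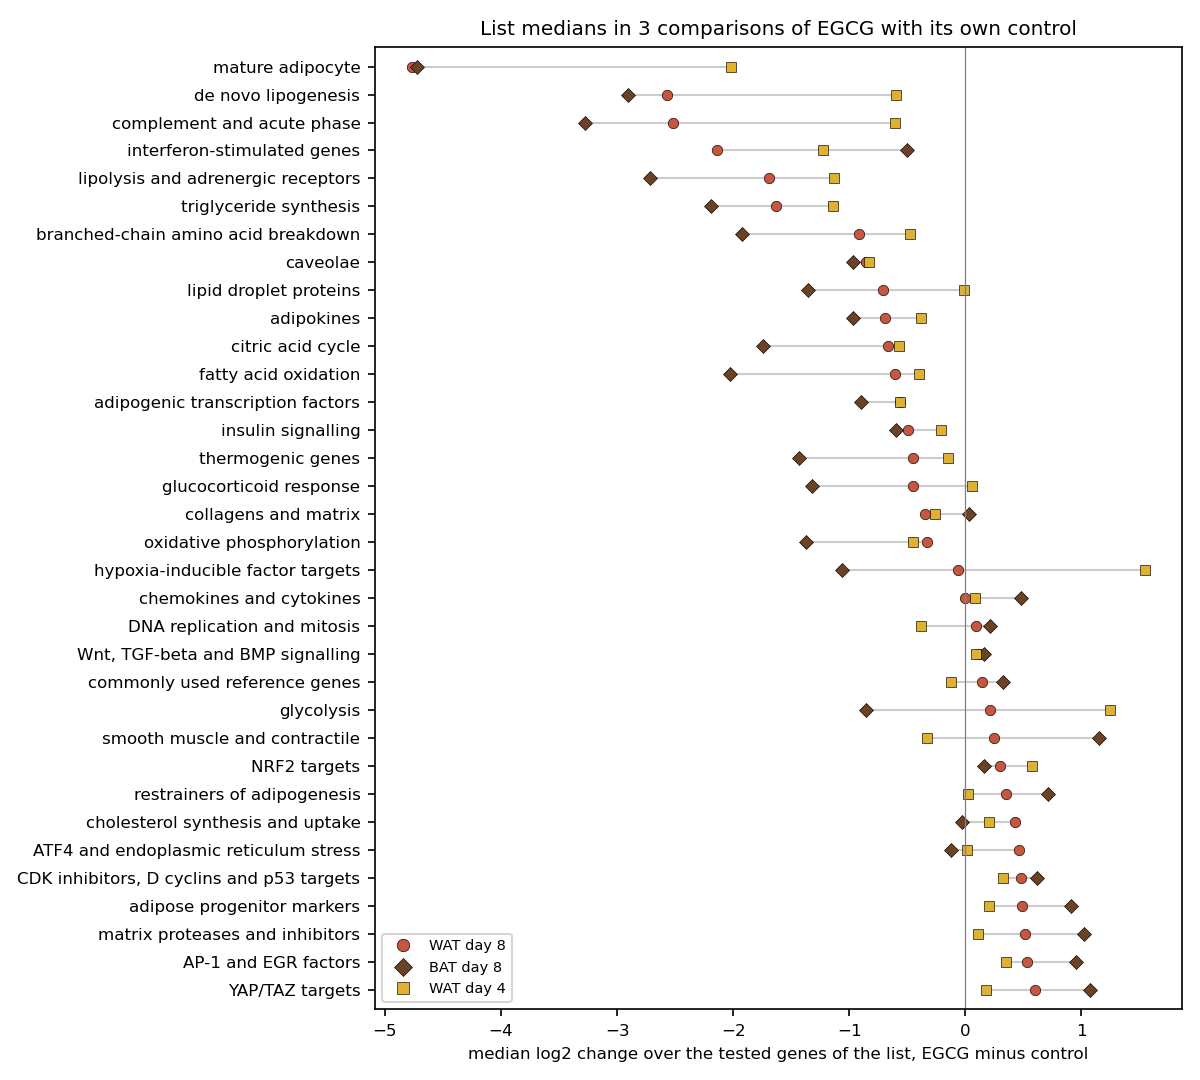
Median log2 change with EGCG against its own control (x axis) of each gene list (y axis) in WAT day 8 (circles), BAT day 8 (diamonds) and WAT day 4 (squares), replicates 1 and 2. Oxidative phosphorylation stands at -0.33, -1.37 and -0.45, interferon-stimulated genes at -2.14, -0.50 and -1.23, and hypoxia-inducible factor targets at -0.06, -1.06 and 1.55.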

How the data were processed

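The authors deposited FPKM values, 1 table for the 16 libraries numbered 1 or 2 and another for the 8 numbered 3. Per the labels, FastQC 0.11.9, HISAT2 2.2.0, HTSeq 0.11 and the build mm9 were named in the submitters' processing notes; their settings are not given in the sources used here. All 37310 gene lengths equalled the longest transcript in GENCODE vM1 (NCBIM37), from which symbols and coordinates were taken. Every FPKM value was a whole multiple of 1 read within a tolerance of 0.01, so reads could be recovered, and 24 of 24 columns matched a sample.

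From these values, log2(FPKM + 1) was fitted with limma 3.58.1 in R 4.3.3 (1 mean per group, trend, 16 libraries, two-sided, Benjamini-Hochberg adjusted p under 0.05) for genes with FPKM of at least 1 in at least 2 libraries. All 8 groups shared 1 estimate of spread. White control cells on day 8 spread most. Over 11520 well-covered genes, the SD of their log2 difference between replicates 1 and 2 was 0.259, against 0.14 to 0.173 in the other groups. The shared estimate may therefore be too small for this contrast. With the spread of its 2 groups alone, 7540 genes were called instead of 8962. The procedure was also tested on simulated data, in which every group had the same spread. That test therefore says nothing of the unequal spread given above. In EGCG replicate 3, 5 genes were dropped and the rest rescaled. Replicate numbers were not taken to pair the libraries. Replicates 1 and 2 of each group differed by more than read sampling, so none was counted as a duplicate. The cells and 34 gene lists were chosen with earlier results of these data known; 765 of 766 list entries were matched, 679 distinct genes were tested, and lists share members. Lists received no set test.

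Genes were named by rule: the 10 highest and 10 lowest log2 changes among called genes whose higher group averaged at least 5 FPKM and whose direction matched in replicates 1 to 3; up to 4 such genes per list; the 5 smallest adjusted p in each direction for each difference of effects; and defining members of lists, of which some were chosen after their values were seen. Alternatives were another pseudocount (0.1), filters, scalings, a voom fit on recovered reads, the spread of the 2 groups alone, both tables together, a replicate block and leaving out each replicate. Of 13900 tested symbols, 9070 matched a RefSeq promoter window. Some genes of the lists were counted with their list and are not reported here by name.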

Additional observations from a re-analysis of the deposited data

Results flagged for a closer look

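The 20 genes named for a difference of effects are given here with the size of that difference, EGCG minus control in white cells on day 8 less the same quantity in the other cells. They were chosen by the smallest adjusted p of the limma test of that difference, so passing it is no further evidence. Against brown cells on day 8 the difference was positive for Chchd10 (3.61), Phyh (2.27), Hadhb (2.04), Hk2 (2.03) and Gpi1 (1.60). It was negative for Adipoq (-2.75), Aebp1 (-1.42), Cd248 (-1.35), Sulf2 (-1.20) and Tmem119 (-1.14). Against white cells on day 4 it was positive for Cygb (2.08), Arhgef40 (1.85), Uap1l1 (1.52), Atp6v1b2 (1.15) and Lrrc59 (1.08), and negative for Orm1 (-5.43), Pnpla3 (-5.28), Lrg1 (-5.04), Scd1 (-4.14) and Lep (-3.93). All values are on the log2(FPKM + 1) scale.

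The reads left out of EGCG replicate 3 stood out because these genes had at most 5 reads in any of the other 23 libraries. They numbered 25426249 over 5 genes: 8164945 on Prl3d1, 7383252 on 1700007K09Rik, and exactly 3292684 on each of 4930555F03Rik, 6030405A18Rik and Gm4675. A further 9 genes had at least 100 reads in this library and at most 5 in every other. Among them Ube2dnl had 37969, 1700019B21Rik 23229, Tm4sf4 6515, Ipcef1 6498, Cnpy1 5183, Gm2061 2479 and C430002E04Rik 2415, while Gpr26 and Gm16538 had 2222 each. By the same count of genes, control replicate 3 of white cells on day 8 had 4, EGCG replicate 3 of white cells on day 4 had 7 and of brown cells on day 8 had 6, and the other 20 libraries had 0.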

How the results depend on the processing

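The 8962 genes called ranged from 7462 to 9618 over every alternative but one: with both tables fitted together and EGCG replicate 3 as deposited, 3750 genes were called, the differences from BAT day 8 and WAT day 4 fell to 2128 and 2425 genes, and the median change was -0.15. These counts are of unlike totals where the filter changed. Of 10129 genes tested with a filter of FPKM 5, 7462 were called, and of 24482 tested without the filter, 9524 were called. The 1323 genes changed at least 2-fold became 2056 with a pseudocount of 0.1 and 2145 with limma voom on recovered reads. The median change of 0.17 became 0.20 with that pseudocount, 0.03 without the filter, 0.21 with a filter of FPKM 5, 0.00 with median-ratio scaling, 0.09 with quantile normalization and 0.21 with voom. Leaving out each library of replicates 1 and 2 in turn gave 7859 to 8701 genes called, 1255 to 1528 changed at least 2-fold, 4534 to 5726 and 6002 to 6976 for the differences, and medians of 0.16 to 0.17; an arm then has 1 library, assumed to vary like the other groups. Over both tables, leaving out each replicate gave 8379 to 8962, 1246 to 1359, 4767 to 5520 and 6239 to 6962. With both tables but without EGCG replicate 3, an alternative chosen after seeing the data, 9243 were called.

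With the replicate block, 8928 genes were called, 1324 at least 2-fold, 5395 and 6853 for the differences, with a median of 0.17. The correlation of same-numbered deviations was -0.0229 in replicates 1 and 2, so the numbers were not taken to pair the libraries. Among named genes, 5 changed sign and were called in the main fit or in the alternative. These were Agpat6 (-0.21), Lpin3 (-0.16) and Pcna (-0.14) in the fit of both tables as deposited, and Fads1 (-0.19 and -0.16) and Fads2 (-0.20) under median-ratio scaling, Fads1 also under quantile normalization. Sign changes of genes called in neither fit were not counted. The cause of these shifts was not tested beyond the scaling itself. Depth limits genes near the floor: with EGCG, Lep had 1, 1 and 0 reads and Orm1 0, 1 and 3 in replicates 1 to 3.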
